A study of Rattus norvegicus with 8 samples.

Results

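Phosphate, klotho and vitamin D handling in the rat kidney was followed through 9 genes. They are the phosphate transporters Slc34a1, Slc34a3, Slc20a1 and Slc20a2, the FGF23 co-receptor and receptor Kl and Fgfr1, and the vitamin D genes Vdr, Cyp27b1 and Cyp24a1. Members were chosen by name, from what the genes are known to do, though with earlier results of these data known. Every array probe whose RefSeq accession belonged to one of them was taken. This gave 12 probes of 30367 on the array and 9 of 15637 named genes, with 3 probes for Slc20a2, 2 for Fgfr1 and 1 for each other gene. All 9 genes passed the filter on dim probes, which left 12411 genes for testing. Kidney RNA from 4 samples given saline and 4 given colistin at 30 mg/kg was hybridised on 1-colour Agilent arrays, and both groups were male rats labelled as 10 weeks of age and sampled at day 28. Colistin, a polymyxin, is an antibiotic of last resort that can damage tubule cells. Strain, route and number of doses were not given in the sources used here. The series title speaks of injured tubules, whereas the labels name kidney as the tissue and record no isolation of tubules.

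The kidney sets how much phosphate leaves the body. Sodium-coupled transporters in the apical membrane of the proximal tubule take filtered phosphate back, and parathyroid hormone and the bone hormone FGF23 reduce their number there. FGF23 acts through FGF receptors bound to the membrane protein klotho, which is most abundant in the distal convoluted tubule. The proximal tubule also makes active vitamin D with the enzyme encoded by Cyp27b1, and the enzyme encoded by Cyp24a1 breaks it down. In the healthy kidney FGF23 lowers the former and raises the latter.

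Levels are given on the log2 scale relative to each array's 75th percentile of processed signal, so 0 is the 75th percentile of that array. Values of different probes were not set against each other, except in the summed marker levels. Those sums, and the shares of single genes in them, weigh each gene by how bright its probe is. The sums also depend on scaling by the 75th percentile, and unscaled sums were not compared. That percentile lay between 156 and 197 signal units on the saline arrays and between 271 and 317 on the colistin arrays, and 69.3 to 75.8% and 79.1 to 83.9% of spots were well above background. The saline arrays also resembled each other less, with a mean correlation to their own group of 0.777 to 0.826 against 0.873 to 0.896 among colistin arrays. The labels do not say that the samples came from separate animals, so p-values reflect variation among these samples, which may partly be technical, and 4 arrays a group limit the precision. As a check of the labelled tissue, the tubule genes Slc22a6, Aqp1 and Umod were well above background on all 4 saline arrays. Havcr1, the kidney injury marker, lay between -2.0 and -0.80 with saline and between 1.91 and 3.73 with colistin, and it rose by 4.48 ± 0.48 (log2, SE; limma, adjusted p = 0.00630).

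None of the 9 genes passed the test between colistin and saline, which was limma's moderated test, adjusted by Benjamini-Hochberg across the 12411 genes, at a threshold of 0.05. The count of 0 compares with 2.00% of all genes. At an unadjusted p under 0.05 there were 2 of the 9, Slc34a1 and Kl, against 22.7% of all genes. These same genes were those whose saline and colistin arrays did not overlap, both lower with colistin, where 11.7% of all genes were lower without overlap, 6.89% were higher and 18.6% did not overlap in either direction. The signs of the 9 differences were mixed, 4 positive and 5 negative where 54.9% of all genes were negative, with a median of -0.12 against -0.14 for all genes. The smallest difference that passed among all genes was 1.48 log2 units, the median standard error over all genes was 0.556, and 3 of the 9 members had a smaller one.

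**Figure D1:**
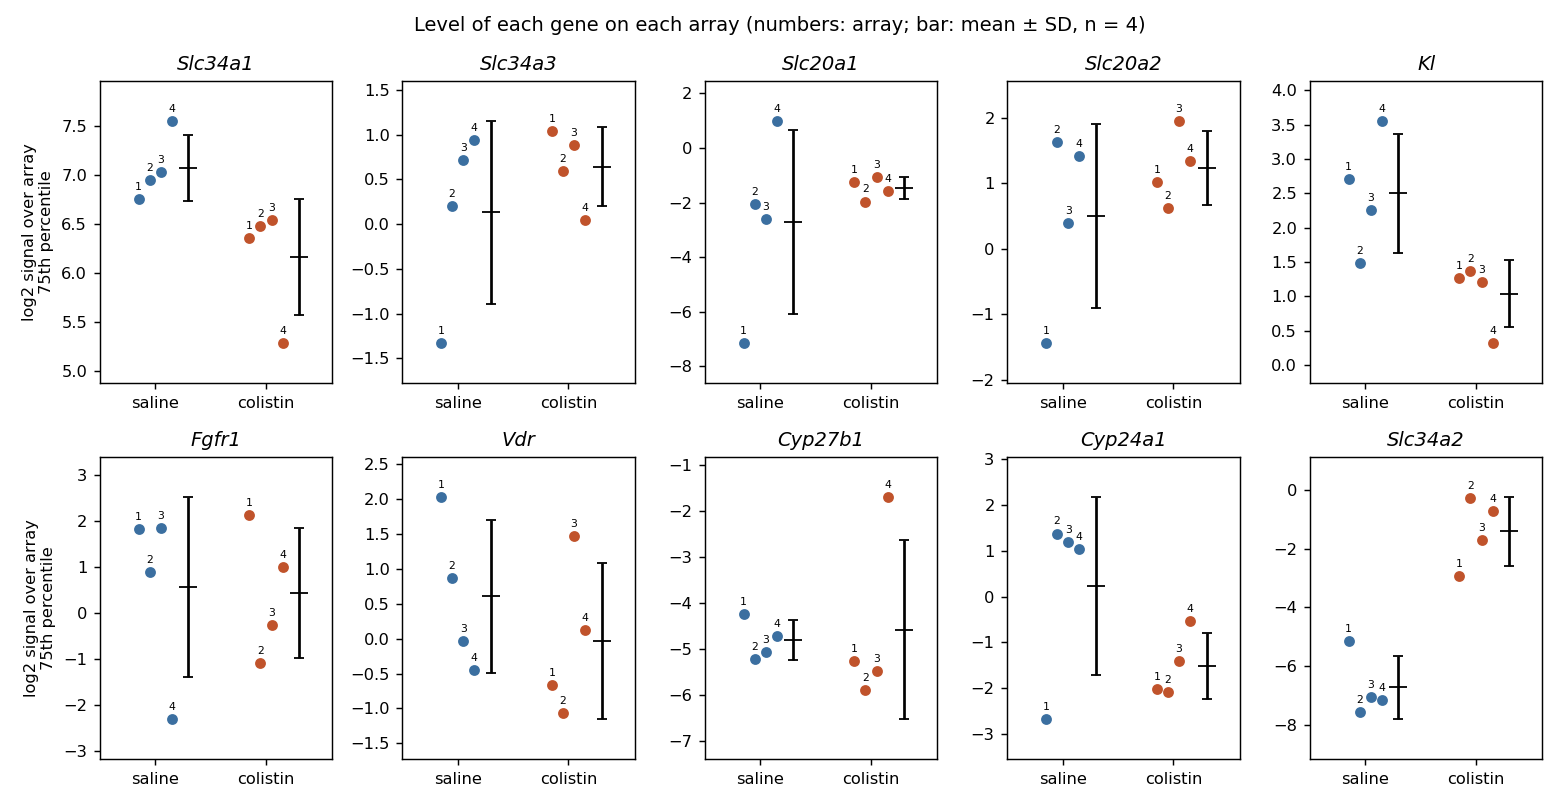
Level of each of the 9 genes and of the related transporter gene Slc34a2 on each array, as log2 signal over the array's 75th percentile. Each numbered point is 1 array, blue for saline and red for colistin, and the bar is the mean ± SD of 4 arrays. The vertical axis differs between panels. The groups are apart for Slc34a1, Kl and Slc34a2 and overlap for the others.

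Slc34a1 encodes NaPi-IIa, the main phosphate transporter of the proximal tubule brush border. Its levels were 6.75, 6.95, 7.03 and 7.55 on saline arrays 1 to 4 and 6.35, 6.48, 6.54 and 5.29 on colistin arrays 1 to 4. Every colistin array lay below every saline array, by 0.21 at the closest, and colistin array 4 lay lowest by over 1 log2 unit. The difference was -0.91 ± 0.38 (log2, SE), with a 95% interval from -1.78 to -0.03, an unadjusted limma p of 0.0440 and an adjusted p of 0.208. Within the 3 slides that carried the arrays it was -0.67, -0.41 and -1.21. It ranged from -1.03 to -0.61 when arrays were left out in turn. These signs follow from the lack of overlap between groups and add nothing to it. With the slide as a fixed block the difference was -0.80 (limma, adjusted p = 0.353). With normexp background correction the groups were also apart (6.41 at the lowest with saline, 6.33 at the highest with colistin), and with quantile normalization they met at 14.475 without overlap. With arrays centred on their median the ranges overlapped, at a difference of -0.90, and without any scaling the signals ran from 16796 to 29225 with saline and from 12372 to 27365 with colistin, a difference of -0.12. RNA from whole tissue cannot tell fewer cells of a type from less RNA per cell.

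Some other proximal tubule transcripts fell in the same samples. Of 20 proximal tubule markers, with no member among them, 4 fell and none rose, against 0.540% of all genes falling. Of the differences 14 were negative and 6 positive, with a median of -0.82. The most positive were those of the amino acid transporter Slc7a7 (1.63 ± 0.68; limma, adjusted p = 0.208), of Cubn (1.25 ± 0.84; adjusted p = 0.388) and of the glucose transporter Slc5a2 (1.14 ± 0.47; adjusted p = 0.200), with Slc7a7 and Slc5a2 named after their values were seen. The 4 that fell were Slc22a6 and Aqp1, an organic anion transporter and a water channel, and Pck1 and G6pc1, both enzymes of glucose production and named after their values were seen. Slc22a6 fell by 1.91 (adjusted p = 0.0297), Aqp1 fell by 1.72 (adjusted p = 0.0284), Pck1 fell by 4.87 (adjusted p = 0.00411) and G6pc1 fell by 2.81 (adjusted p = 0.0460; all limma). With the slide as a fixed block Pck1 still passed (adjusted p = 0.0291), while Slc22a6 (0.118), Aqp1 (0.122) and G6pc1 (0.143) did not. With 1 array left out in turn, Pck1 passed in 8 of 8 fits, Aqp1 in 3 and Slc22a6 and G6pc1 in 1 each, with adjusted p up to 0.0216, 0.0885, 0.0919 and 0.119 in that order. Added up as multiples of the 75th percentile, the 20 markers reached 899 to 1399 on the saline arrays and 362 to 595 on the colistin arrays. On the colistin arrays all 20 were well above background throughout, and on the saline arrays 18 were. Their part in the Slc34a1 value was not tested.

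Slc34a3 encodes NaPi-IIc, the second proximal tubule transporter of that family. Its levels were -1.33, 0.20, 0.72 and 0.94 with saline and 1.04, 0.59, 0.89 and 0.04 with colistin. The groups overlapped, and saline array 1 stood below the other 7 arrays. The difference was 0.51 ± 0.54 (log2, SE; 95% interval -0.72 to 1.74; limma, adjusted p = 0.583), and it was 0.02 without saline array 1. Within slides it was 0.79, 0.69 and -0.18. Before scaling the colistin signals were all above the saline signals, a difference of 1.29, on arrays that were brighter throughout.

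The sequences just upstream of Slc34a1, Slc34a3 and Kl are shown because 2 of these genes were those without overlap between groups and the other is the family member of Slc34a1 that did overlap. Each is the 250 bases before the annotated start, 5′ to 3′ on the gene's strand, from RefSeq on build GRCr8. Slc34a1 lies at chr17:9238984-9239233 on the minus strand, Slc34a3 at chr3:28447998-28448247 on the minus strand and Kl at chr12:5325753-5326002 on the plus strand. Capitals mark matches to 5 motifs searched on both strands: AGGTCA as a nuclear receptor half-site, its variants AGTTCA for one and GGTTCA for another, GTTAAT as the HNF1 half-site and TATAAA as the TATA box. A match on the other strand appears as the reverse complement, and no matches overlapped.
Slc34a1: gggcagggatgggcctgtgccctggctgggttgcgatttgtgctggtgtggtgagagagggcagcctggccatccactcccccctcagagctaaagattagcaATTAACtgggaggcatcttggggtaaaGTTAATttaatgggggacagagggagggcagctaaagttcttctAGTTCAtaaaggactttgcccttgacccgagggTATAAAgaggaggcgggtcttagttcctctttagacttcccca
Slc34a3: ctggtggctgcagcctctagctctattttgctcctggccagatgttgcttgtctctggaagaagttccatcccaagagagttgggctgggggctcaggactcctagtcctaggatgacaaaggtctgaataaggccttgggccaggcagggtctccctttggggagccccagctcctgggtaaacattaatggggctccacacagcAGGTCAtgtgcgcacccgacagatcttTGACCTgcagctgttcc
Kl: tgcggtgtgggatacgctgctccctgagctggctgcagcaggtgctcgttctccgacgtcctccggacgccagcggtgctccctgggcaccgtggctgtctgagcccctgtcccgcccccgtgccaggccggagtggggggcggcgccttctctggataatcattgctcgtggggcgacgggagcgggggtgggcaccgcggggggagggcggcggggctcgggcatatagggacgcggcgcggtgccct
The Slc34a1 window held AGTTCA at -76 to -71, GTTAAT at -147 to -142 on the other strand and again at -120 to -115, and TATAAA at -43 to -38, counted from the start. In the Slc34a3 window AGGTCA stood at -44 to -39 and, on the other strand, at -17 to -12. None of the motifs was found in the Kl window, which was 73.2% G and C against a median of 51.2% over 33469 promoters. Among those promoters 31.26% held at least 1 of the 3 half-sites, 6.454% held GTTAAT and 12.93% held TATAAA. A match describes the letters only. GGTTCA stood in the Vdr window on the other strand and in the Cyp27b1 window on the gene's strand. It was held by 9.767% of promoters. The Cyp27b1 window also held TATAAA, on the other strand. Slc20a1, Slc20a2, Fgfr1 and Cyp24a1 are named here without sequence.

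Slc20a1 encodes PiT-1, a phosphate transporter present in most cell types. Its levels were -7.15, -2.07, -2.60 and 0.98 with saline and -1.24, -1.96, -1.08 and -1.58 with colistin. The 4 colistin arrays lay close together, with an SD of 0.39, whereas the saline arrays spanned the widest range of any member, and the probe was not well above background on saline array 1. The difference of 1.24 ± 1.47 (log2, SE; 95% interval -2.13 to 4.62; limma, adjusted p = 0.630) turned to -0.24 without saline array 1 and was 2.47 without saline array 4.

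Slc20a2, which encodes the related transporter PiT-2, was read by 3 probes that did not all run together. The brightest, A_43_P10047, read -1.44, 1.63, 0.40 and 1.42 with saline and 1.02, 0.62, 1.95 and 1.34 with colistin. Saline array 1 stood alone below the rest, and the difference was 0.73 ± 0.69 (log2, SE; limma, adjusted p = 0.540), or 0.08 without that array. Probe A_64_P078664 read -2.15, -2.07, -2.18 and -2.66 with saline and 0.65, -2.97, 0.73 and -1.04 with colistin. Its saline arrays were close together, with an SD of 0.27, while 3 of 4 colistin arrays were higher and 1 was lower. Its difference was 1.61 ± 0.79 (limma over all kept probes, adjusted p = 0.243), and that of A_64_P078666 was 1.34 ± 1.10 (adjusted p = 0.462). Deviations from the group means over the 8 arrays had a Pearson correlation of 0.82 between the A_64 probes and of 0.21 and -0.30 between each of them and A_43_P10047.

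**Figure D2:**
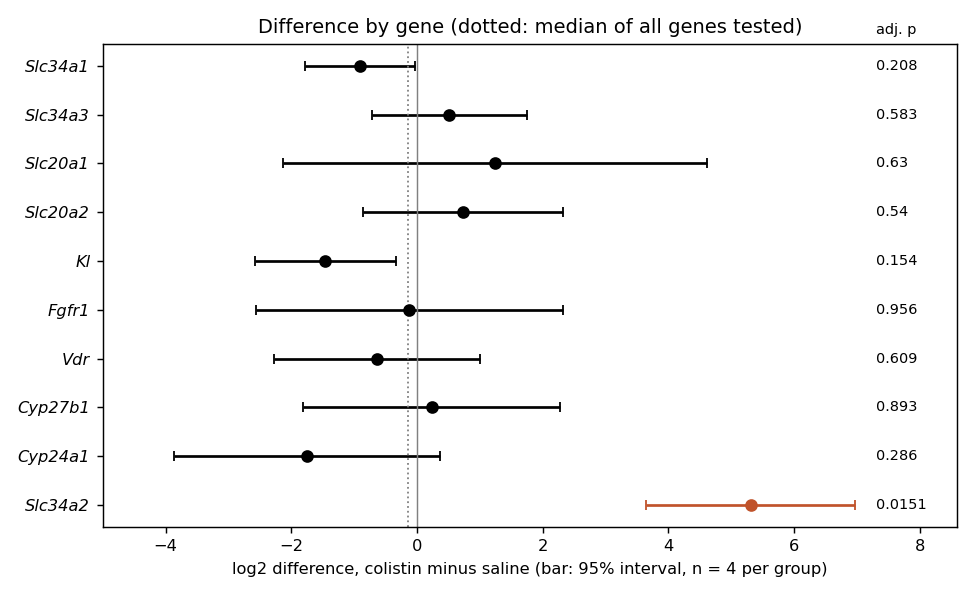
Log2 difference, colistin minus saline, for the 9 genes and Slc34a2, with 95% intervals from limma (4 arrays per group) and adjusted p at the right. The dotted line is the median of all genes at -0.14. Intervals of Slc34a1 and Kl lie below 0 before adjustment, and Slc34a2, in red, passed after it, though its saline arrays were not well above background.

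Kl encodes klotho. Its levels were 2.72, 1.48, 2.26 and 3.55 with saline and 1.26, 1.38, 1.21 and 0.32 with colistin. All colistin arrays lay below all saline arrays, but the gap was 0.11, between saline array 2 and colistin array 2, and colistin array 4 was the lowest. The difference was -1.46 ± 0.49 (log2, SE), the most precise of the member differences beyond 1 log2 unit, with a 95% interval from -2.59 to -0.33, an unadjusted limma p of 0.0173 and an adjusted p of 0.154. Within slides it was -1.76, -0.27 and -1.47. Left-out arrays moved it between -1.80 and -1.11, with adjusted p from 0.112 to 0.273, and without saline arrays 1 and 4 together it was -0.83 (limma, adjusted p = 0.383). With normexp background correction the difference was -1.23 with an adjusted limma p of 0.0514. In that fit 3325 of 12411 genes passed, 2645 of them lower. With normexp, as with median centring and with unscaled signals, the groups overlapped, whereas with quantile normalization they did not.

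Markers of the distal convoluted and connecting tubule, where klotho is most abundant, were lower on the colistin arrays as a summed level. The 7 of 9 markers that could be tested summed to 71.7 to 110 multiples of the 75th percentile with saline and to 5.32 to 34.4 with colistin. Klk1, a kallikrein of the connecting tubule named after its values were seen, made up 66.7 to 75.8% of that sum with saline and 32.0 to 51.8% with colistin (-3.30 ± 0.68; limma, adjusted p = 0.0540). The other 6 summed to 20.3 to 36.7 with saline and 3.51 to 16.6 with colistin. All 7 differences were negative, with a median of -1.24, and none passed the test. Slc12a3, the thiazide-sensitive sodium chloride transporter, read 4.11, 3.92, 3.97 and 4.97 with saline and -0.35, 2.65, 3.55 and 2.82 with colistin, without overlap (-2.07 ± 0.81; limma, adjusted p = 0.187). Upstream of it, in the thick ascending limb, Umod differed by -6.58 ± 1.39 (limma, adjusted p = 0.0586), with colistin array 1 not well above background. All 7 were well above background on every saline array and 6 on every colistin array, the exception being Calb1. Their part in the Kl value was not tested.

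Fgfr1 encodes an FGF receptor that binds FGF23 together with klotho. Its brighter probe read 1.83, 0.90, 1.85 and -2.29 with saline and 2.13, -1.08, -0.25 and 1.0 with colistin. Values spread widely in both groups and overlapped, with saline array 4 the lowest. The difference was -0.12 ± 1.06 (log2, SE; 95% interval -2.56 to 2.32; limma, adjusted p = 0.956) and moved between -1.08 and 0.39 with arrays left out. The other probe read 1.51, 1.84, 1.0 and -2.87 with saline and 0.51, -1.98, -0.41 and 1.06 with colistin. It shared the lowest array of each group with the first probe but not the highest, and differed by -0.57 ± 1.13. The deviations of both probes had a Pearson correlation of 0.90 over 8 arrays.

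Vdr encodes the vitamin D receptor, a nuclear receptor that binds active vitamin D and acts with a retinoid X receptor partner. Its levels were 2.03, 0.87, -0.04 and -0.44 with saline and -0.67, -1.06, 1.46 and 0.12 with colistin. The groups overlapped over most of their range. The difference was -0.64 ± 0.71 (log2, SE; 95% interval -2.28 to 1.0; limma, adjusted p = 0.609). Its sign was not the same on every slide, at -1.86, 0.60 and -0.24.

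Cyp27b1 encodes the 1-alpha-hydroxylase that makes active vitamin D. The probe was dim, and its spot stood well above background on 2 saline arrays and on all 4 colistin arrays. Levels were -4.24, -5.21, -5.07 and -4.73 with saline and -5.26, -5.89, -5.48 and -1.68 with colistin. Colistin array 4 alone stood out, at a signal of 98.7 units where the other 7 arrays lay between 5.17 and 8.28. The difference of 0.23 ± 0.89 (log2, SE; 95% interval -1.81 to 2.27; limma, adjusted p = 0.893) became -0.73 without that array (adjusted p = 0.329).

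Cyp24a1 encodes the 24-hydroxylase that breaks down vitamin D. Its levels were -2.67, 1.38, 1.20 and 1.05 with saline and -2.02, -2.08, -1.41 and -0.54 with colistin. Of the saline arrays, 3 lay within 0.4 log2 units of each other and above every colistin array, while saline array 1 lay below all of them. With all arrays the difference was -1.75 ± 0.92 (log2, SE; 95% interval -3.87 to 0.37; limma, adjusted p = 0.286). Within slides it was -1.27, -2.79 and -2.48, and the first of these slides held saline array 1. Without saline array 1 the difference was -2.72 and passed (limma, adjusted p = 0.0431), where 1.44% of all genes passed and 0.282% fell. Without saline arrays 1 and 4 together it was -2.80 and did not pass (adjusted p = 0.0777). It was the only one of the 9 genes to pass in any of the fits run.

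**Figure D3:**
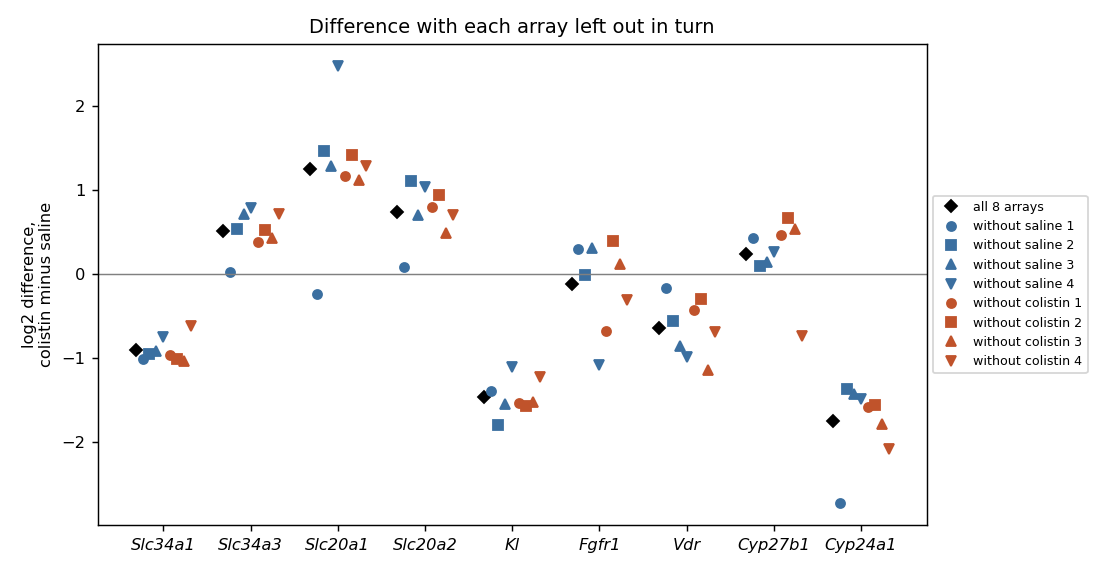
Log2 difference, colistin minus saline, of each gene with all 8 arrays (black) and with each array left out in turn (blue for a saline array, red for a colistin array, shape for its number). Slc34a1, Kl, Vdr and Cyp24a1 stay below 0 and Slc34a3 and Slc20a2 above it, while Slc20a1, Fgfr1 and Cyp27b1 take both signs.

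Several members shared the arrays that stood apart. Saline array 1 was the lowest saline array for Slc34a1, Slc34a3, Slc20a1, the brightest Slc20a2 probe and Cyp24a1 and the highest for Vdr and Cyp27b1. Colistin array 4 was the lowest colistin array for Slc34a1, Slc34a3 and Kl and the highest for Cyp24a1 and Cyp27b1.

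Beyond the members, 20 other genes of phosphate transport, its scaffold proteins and FGF23 or parathyroid hormone signalling were followed, of which 17 could be tested. Of these 1 rose and none fell, where 1.46% and 0.540% of all genes did, 12 differences were negative and the median was -0.61. At an unadjusted limma p under 0.05 there were 6 of the 17, against 22.7% of all genes. The gene that rose was Slc34a2, which encodes NaPi-IIb, the family member best known from intestine and lung. Its levels were -5.14, -7.55, -7.04 and -7.14 with saline and -2.93, -0.30, -1.70 and -0.71 with colistin. The groups were apart by 2.21 log2 units, and the probe was well above background on none of the saline arrays and on all 4 colistin arrays. The tested difference was 5.31 ± 0.72 (log2, SE; limma, adjusted p = 0.0151). It rests on saline values below the background flag, and the probe passed the filter through its colistin arrays alone. Set against the dimmest signals well above background on the saline arrays, it was 23.2-fold higher with colistin on this scaling. That fold was not itself tested. For it each saline array contributed either the probe's own value or the dimmest value that was still well above background there, whichever was higher. The fold is not a strict lower bound. Probes without the flag can read above those dimmest values, as Slc34a2 did on saline array 1. Slc34a2 passed in 7 of 8 fits with 1 array left out, with an adjusted p of 0.0507 without colistin array 4. It also missed the threshold with the slide as a block (adjusted p = 0.0547) and with normexp background correction (1.08 log2 units, adjusted p = 0.0560).

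None of the remaining genes of that list passed. Galnt3, the enzyme that glycosylates and so protects FGF23, was higher on every colistin array (1.58 ± 0.44, limma adjusted p = 0.110). Pth1r, the parathyroid hormone receptor, differed by -1.64 ± 0.76 (adjusted p = 0.242) and Pdzk1, a scaffold that binds NaPi-IIa, by -1.48 ± 0.61 (adjusted p = 0.203), both with overlap. Nherf1, the other main scaffold of NaPi-IIa, differed by -0.24 ± 0.30, and the phosphate exporter Xpr1 by -0.33 ± 0.36. Nherf2, a further scaffold gene named after its values were seen, differed by -1.84 ± 0.73 with overlap (limma, adjusted p = 0.193). The receptors Fgfr2, Fgfr3 and Fgfr4 differed by -0.61 ± 0.29, -0.73 ± 0.45 and 1.5 ± 0.85, each by its brightest kept probe. Probes were mixed in sign, with 2 of 4 kept Fgfr2 probes and 1 of 2 kept Fgfr3 probes positive. Named after their values were seen, Ankh, which exports pyrophosphate and ATP, and Alpl, an alkaline phosphatase, were the genes of this list that lay lower without overlap, at -1.33 ± 0.31 and -1.08 ± 0.44 (limma, adjusted p = 0.0781 and 0.199). The 6 genes at an unadjusted limma p under 0.05 were Slc34a2 and Galnt3, both higher, and Pdzk1, Nherf2, Ankh and Alpl, all lower. Fgf23, a hormone made mainly in bone, passed the background flag on each of the 4 colistin arrays and on none of the saline arrays, yet its levels ran from -5.85 to -5.13 with saline and from -5.40 to -5.12 with colistin. Klb had no named probe, and Phex and Dmp1 did not pass the filter.

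**Figure D4:**
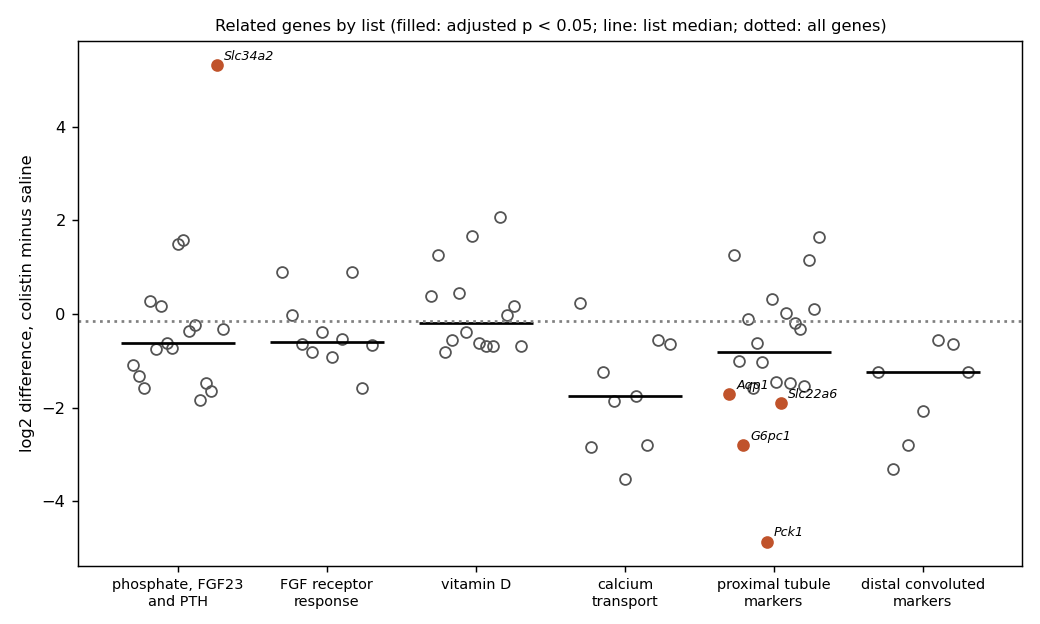
Log2 difference, colistin minus saline, of the other genes of each list (1 point per gene). Filled points passed the test, the black line is the list's median and the dotted line the median of all genes. Slc34a2 is the only filled point in the 4 pathway lists, and the filled proximal tubule markers Slc22a6, Aqp1, G6pc1 and Pck1 all lie below 0.

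Genes commonly induced through FGF receptors and ERK gave no call. Of 12 such genes 10 could be tested, 8 differences were negative and the median was -0.60, with 1 of the 10 at an unadjusted limma p under 0.05, against 22.7% of all genes. That gene, named after its values were seen, was the feedback inhibitor Spry2 (-1.57 ± 0.60, adjusted p = 0.184), whose groups overlapped. Dusp6, a phosphatase that ERK signalling induces, differed by -0.03 ± 0.46 (95% interval -1.08 to 1.02). Spry4, of the same family and likewise named after its values were seen, was the one gene of the list without overlap, at -0.66 ± 0.29 (limma, adjusted p = 0.226). Spry1 had no named probe, and Egr1 did not pass the filter.

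No other gene of vitamin D uptake, activation or receptor function passed either. In that list 14 of 18 could be tested, with 6 differences positive, 8 negative, a median of -0.20 and 2 at an unadjusted limma p under 0.05, against 22.7% of all genes. Lrp2, the endocytic receptor that takes up vitamin D with its binding protein, read 6.60, 6.84, 6.55 and 7.38 with saline and 6.34, 6.25, 6.42 and 5.85 with colistin. All colistin arrays were lower, though the difference of -0.63 ± 0.31 did not pass (limma, adjusted p = 0.265). Its partner Cubn differed by 1.25 ± 0.84 with saline array 1 far below the rest, at -1.83. The receptor partner Rxra differed by -0.02 ± 1.07, with a wide 95% interval from -2.48 to 2.44, and Cyp2r1, a 25-hydroxylase, differed by -0.81 ± 1.21. Ncoa2, a receptor coactivator named after its values were seen, was the other gene lower without overlap (-0.70 ± 0.30; limma, adjusted p = 0.212). Ncoa1 and Med1 had no named probe, and Cyp27a1 and Gc did not pass the filter.

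None of the calcium transport genes of the distal nephron, several of them vitamin D targets, passed the test. Of 11 genes 9 could be tested, 8 differences were negative and the median was -1.76, with 2 at an unadjusted limma p under 0.05, against 22.7% of all genes. These were S100g and, named after its values were seen, the claudin gene Cldn19 (-1.76 ± 0.61, adjusted p = 0.161). S100g, the small calbindin, read 0.96, 0.59, 1.84 and 1.06 with saline and 0.09, -0.29, -1.50 and -5.04 with colistin. Every colistin array was below every saline array, with colistin array 4 lowest, and the difference was -2.80 ± 1.05 (limma, adjusted p = 0.181). Calb1, the larger calbindin, differed by -1.24 ± 1.71, and on colistin array 1 it was not well above background. The channel Trpv5 differed by -0.65 ± 0.51, the exchanger Slc8a1 by -0.56 ± 0.34, the calcium pump Atp2b1 by 0.24 ± 0.71 and the calcium-sensing receptor Casr by -1.86 ± 1.45. Kept probes were mixed in sign for Slc8a1 (1 of 3 positive) and Atp2b1 (1 of 2 positive). Trpv6 and Cldn14 did not pass the filter. Several of these genes are also distal tubule markers, whose summed level is given with Kl.

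Lower summed levels on the colistin arrays were not limited to tubule markers. The 9 tested endothelial markers summed to 38.1 to 58.7 with saline and 4.96 to 8.12 with colistin, and 4 of them fell (Pecam1, Kdr, Flt1 and Plvap) where 0.540% of all genes did. With the slide as a fixed block none of these 4 passed, at adjusted limma p from 0.0512 to 0.0899. The 13 tested injury markers summed to 9.45 to 15.1 and 93.2 to 140, and 5 of them rose (Havcr1, Spp1, Lgals3, Anxa2 and Gdf15) where 1.46% of all genes did. Of these Havcr1, Spp1 and Anxa2 passed with the slide as a fixed block, all at an adjusted p of 0.0291. Except for Havcr1, the passing genes of both lists were named after their values were seen. Whether these marker levels bear on the member values was not tested.

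By likeness over the 8 arrays, after group means were removed, each member well above background throughout was set against 9247 other genes, and the closest is a description of a wide search. Slc34a1 ran closest to Slc37a4, the glucose-6-phosphate transporter (Pearson r = 0.975, Spearman rho = 0.929), and to the kinase gene Sgk1 (0.970 and 0.952). Among the genes most like Kl was Pdzd8 (0.967 and 0.762). Cyp24a1 ran closest to the ribosomal protein genes Mrpl4 (0.977 and 0.905) and Rpl7a (0.975 and 0.929), and Slc34a3 to Rpl5 (0.990 and 0.976) and Prpsap1 (0.989 and 0.976). Also among the most alike were Elmod2 and Gemin6 for Slc20a2, Immt for Fgfr1, and Myh7b and Rab3il1 for Vdr, all with r between 0.967 and 0.981. Slc20a1 and Cyp27b1 were not searched, since neither was well above background on all 8 arrays.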

How the data were processed

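Spots were scanned on 8 single-colour arrays. The submitters' processing notes name Agilent Feature Extraction 10.5 as the software behind the intensity values, which the authors deposited as 1 table per array. Background had been subtracted and spatial trends removed within each array, per the file headers. The deposited series table held log2 values, which scanner values showed to be shifted by about each array's 75th percentile and centred on each probe's median over the arrays. Medians of its columns, in array order, were 0.232, 0.0227, 0.0862 and 0.195 with saline and -0.113, -0.229, -0.0885 and -0.0324 with colistin. No scanner values were scaled between arrays before the steps described here.

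Outlier spots were dropped, copies averaged, and log2 processed signal set against the array's 75th percentile. No spot was saturated. A probe was kept if 3 or more of the 4 arrays in a group read it well above background (23710 probes), and each gene took its brightest kept probe, over 12411 genes. Names came from RefSeq accessions matched to GRCr8 (18643 of 30367 probes). The array design used an older build, so only promoter coordinates are given. The groups were compared in R 4.3.3 with limma 3.58.1 (lmFit, then eBayes), two-sided, with Benjamini-Hochberg adjustment, after a check on simulated data. Tables were handled in Python 3.11.15 with pandas 2.3.3 and numpy 2.4.6. Normexp (offset 50) ran on the median signal, since the files hold no mean signal.

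Members, gene lists and tests were chosen with earlier results of these data known. Named were all members, up to 3 passing genes per list and direction, a fixed group of related genes, and the 2 most alike genes per member, some of which are not reported here. Genes outside this rule are said to be named after their values were seen. Slides, 3 in all, each held both groups. Slide 1 carried saline arrays 1 and 4 and colistin array 2, slide 2 saline 2 and colistin 3, slide 3 saline 3 and colistin 1 and 4. Alternatives covered background correction, scaling, filters, probe choice, an intensity trend, slide and replicate blocks, the deposited table and arrays left out.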

Additional observations from a re-analysis of the deposited data

Results flagged for a closer look

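Among 116 groups of 4 arrays tested for a sample far from its group, 9 held one, where chance gives about 1 in 20. All 3 found among the members' colistin values were colistin array 4. It read 5.29 for Slc34a1 where the nearest colistin array read 6.35, 0.32 for Kl where the nearest read 1.21, and -1.68 for Cyp27b1 where the nearest read -5.26. Saline array 1 read -2.67 for Cyp24a1 (nearest 1.05) and -1.83 for Cubn (nearest 1.56). Saline array 4 read 1.56 for Atp2b1 (nearest 4.32) and 4.51 for Alpl (nearest 3.12). Saline array 2 read 3.19 for Ankh (nearest 3.86), and colistin array 1 read -6.24 for Umod (nearest -0.47).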

How the results depend on the processing

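Of 187 member values recomputed under 21 alternatives, 176 kept their sign and their side of the threshold, 10 changed sign and 1 newly passed. The cause of these changes was not tested. Other filters, the fit over all kept probes, the intensity trend and the replicate block left the log2 difference of each member tested unchanged. No sign could change in those fits. Slc20a1 changed sign with normexp (-0.066), and leaving out arrays gave -0.24 to 2.47. Fgfr1 did so with the slide as a random block (0.018), and left-out arrays gave -1.08 to 0.39. Cyp27b1 did so with normexp (-0.27) and the slide as a fixed block (-0.0046), and left-out arrays gave -0.73 to 0.67. Cyp24a1 ranged from -2.72 to -1.37 over left-out arrays and passed without saline array 1, so the count of members that passed ran from 0 to 1.

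Over all genes 248 passed, and the count was 78 to 255 with arrays left out, 3325 with normexp, 405 with an intensity trend, 40 with the slide as a fixed block (39 of them shared) and 143 without saline arrays 1 and 4. The share of passing genes that were higher was 72.98%, 20.45% with normexp, 60.49% with an intensity trend, 59.61% with probes well above background on all 8 arrays and 87.5% with the slide as a fixed block. Normexp moved the median of all genes from -0.14 to -0.34. In the phosphate and FGF23 list the count of 1 of 17 became 3 with normexp, where 3325 of all 12411 genes passed. It was 2 with an intensity trend and without saline arrays 1 and 4. It was 0 with the all-array filter and with the slide as a fixed block, and 0 to 2 with arrays left out. With normexp Slc34a2 did not pass, and the 3 were Galnt3 (1.07; limma, adjusted p = 0.0430), Ankh (-1.18; 0.0273) and the dim Fgf23 probe (-0.52; 0.0379). In the main fit Fgf23 had the other sign, at 0.16, and its probe passed the filter through its colistin arrays alone. The all-array filter removed Slc34a2 before the test. Normexp gave 1 of 10 FGF response genes and 2 of 9 calcium genes where there had been 0, beside 3325 of 12411 over all genes. Same-numbered samples did not deviate together (correlations 0.000, 0.002, 0.013 and -0.020). The labels pair no samples, and same-numbered arrays lay on different slides, so these correlations cannot show whether samples were paired. With the replicate block 5 genes passed, 0 of the phosphate list. Dim signals limit Cyp27b1, Slc20a1 and the saline side of Slc34a2.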
